A study of Homo sapiens with 6 samples.

Results

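The genes described here are 42 genes of homologous recombination and of the Fanconi anaemia pathway, chosen by symbol from a table of 25343 genes. All 42, called the members here, were listed in the table. RNA came from A375, an established line of human malignant melanoma cells. Parental A375 cells were given 50 nM panobinostat or the same volume of PBS (vehicle) for 24 h, and 3 libraries were sequenced from each group. Panobinostat inhibits histone deacetylases, enzymes that remove acetyl groups from histones and other proteins. The labels do not state that the 3 libraries of a group came from separate cultures. The p-values therefore reflect how far these libraries scatter, and that scatter may be technical only.

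Homologous recombination repairs a double-strand break by copying the sister chromatid. The break ends are first trimmed to single strands by nucleases, a protein filament that searches for matching sequence is then assembled on the single strand with the help of BRCA2 and its partners, and the joined molecules are finally resolved by helicases and nucleases. The Fanconi anaemia pathway detects crosslinks between the strands of DNA, attaches ubiquitin to the FANCD2 and FANCI pair, and hands the lesion on to nucleases and to recombination. Many of these genes are transcribed mainly in S and G2 phase, when a sister chromatid is at hand, and E2F transcription factors bind the promoters of several of them.

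Panobinostat lowered most of these genes. All 42 passed the filter on low counts and all 42 were called, against 82.8% of all genes tested: 38 fell and 4 rose (edgeR's quasi-likelihood test, Benjamini-Hochberg adjusted p under 0.05 over all genes tested). Of 15499 genes tested, 41.0% were lower and 41.8% higher with the drug. Of the members, 90.5% were lower. Falls of at least 2-fold were found for 23 members, or 54.8%, against 11.7% of all genes tested. Falls of at least 4-fold were found for 7 members (2.88% of all genes tested), and no member rose by 2-fold. The median log2 change was -1.23, and the middle 21 members lay between -1.78 and -0.66, whereas the median of all genes tested was 0.01. The panobinostat and vehicle ranges did not overlap for any of the 42 genes, which was also so for 83.4% of all genes tested. Member levels in vehicle ran from 4.21 to 186 CPM (counts scaled to a common library size, with TMM, the trimmed mean of M values). Among the 10024 tested genes within that range of levels, 49.9% were lower and 12.9% at least 2-fold lower.

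**Figure D1:**
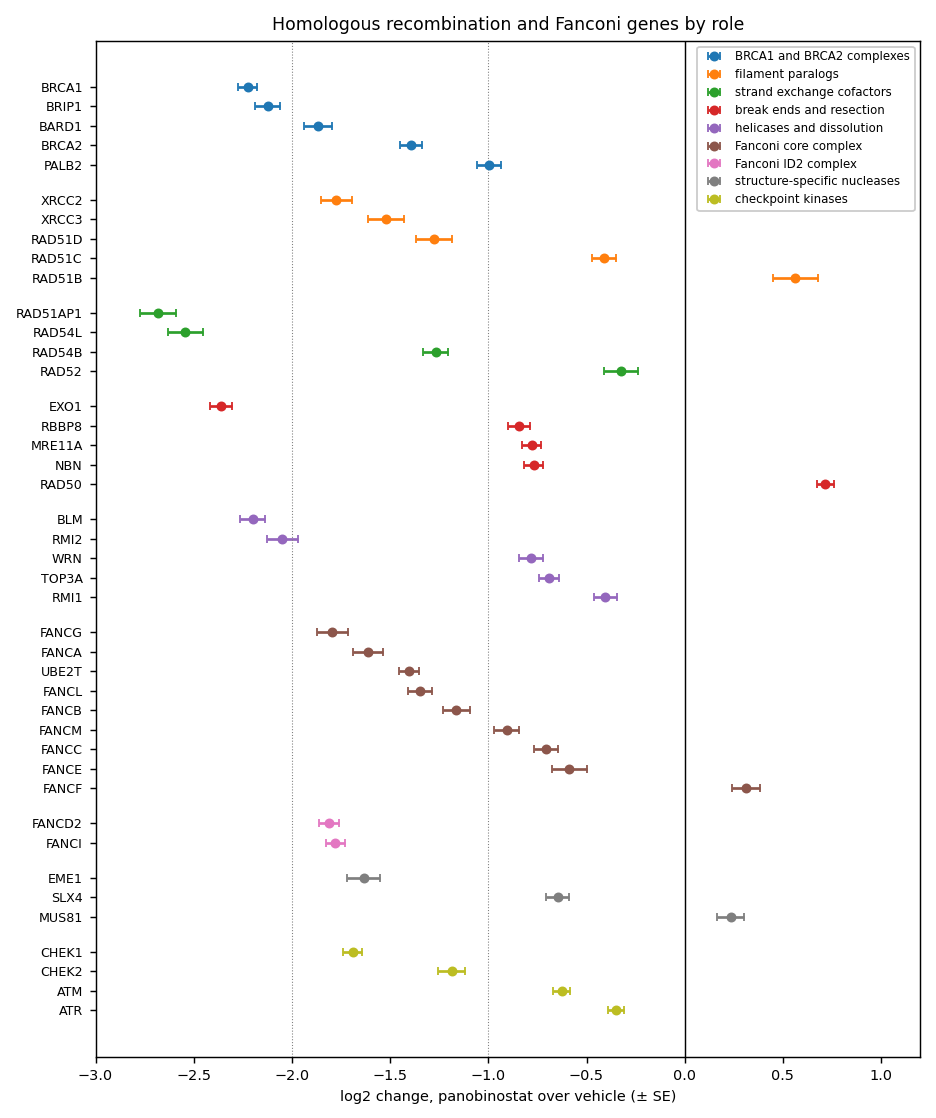
Log2 change of each of the 42 genes, panobinostat over vehicle, with the SE as a bar, grouped by role, and dotted lines at a 2-fold and a 4-fold fall. The 38 genes left of 0 fell, with RAD51AP1 lowest at -2.68, and the 4 right of 0 are RAD50, RAD51B, FANCF and MUS81.

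Markers of cycling cells moved with these genes. Of 20 S phase marker genes outside the members 20 fell, with a median log2 change of -1.99, and their summed level was 746 to 776 CPM in the panobinostat libraries, against 2679 to 2762 CPM in the vehicle libraries. Of 20 mitosis marker genes 19 fell, with a median of -1.44, and their sums were 2075 to 2168 CPM with panobinostat and 5036 to 5166 CPM in vehicle. Beside these counts, 41.0% of all genes tested fell, and 49.9% of those at the members' levels. The members' own sums were 1091 to 1101 CPM with panobinostat and 2041 to 2119 CPM in vehicle. In bulk RNA fewer cells in S or G2 phase and less RNA of these genes per cell cannot be told apart, and the part of the cell cycle markers in the members' falls was not tested. Library totals were 32293283 to 36201208 counts with panobinostat and 34738362 to 38944399 in vehicle. Of 8 melanocyte and neural crest markers 5 were tested, of which 4 fell and 1 rose (sums of 693 to 764 CPM with panobinostat and 1886 to 2023 CPM in vehicle). SOX10 stood at 368 ± 21.8 CPM with panobinostat and 813 ± 56.3 CPM in vehicle (SD, n = 3 each), while the pigment cell markers MLANA and TYR had 0 counts in every library. PMEL, which encodes a fibril protein of pigment granules, was the marker that rose, to 194 ± 9.46 CPM with panobinostat against 0.628 ± 0.118 CPM in vehicle (SD, n = 3 each). Markers of cells that a pure line should lack were mixed: PTPRC, CD3E and NKG7 averaged at most 0.0572 CPM with panobinostat and 0.0441 CPM in vehicle, but 4 of 5 fibroblast markers rose (sums of 73.1 to 76.9 CPM with panobinostat and 13.2 to 14.1 CPM in vehicle). Of 6 lymphoid and myeloid markers 2 were tested and 2 rose, mainly the lysosomal protein gene CD68 (sums of 89.0 to 91.7 CPM with panobinostat and 35.2 to 40.1 CPM in vehicle). Of 4 endothelial markers 3 were tested and 3 rose (18.4 to 18.8 CPM with panobinostat and 9.06 to 10.4 CPM in vehicle). Of 5 keratinocyte markers 2 were tested, of which 1 rose and 1 fell (1.42 to 1.96 CPM with panobinostat and 3.07 to 3.67 CPM in vehicle). The untested markers did not pass the filter on low counts. Among all genes tested 41.8% rose and 41.0% fell. The part of these markers in the members' falls was not tested.

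Promoter motifs were searched on both strands of RefSeq sequence (GRCh38.p14), in the 250 bases before each listed start. Of the 42 members 37 were matched, with 50 windows. The E2F-type search took the letters TTCCCGC, as in many known sites of these factors. It also took TTCGCGC as a variant of the same length. Further variants that differ from these inside the core were TTGCCGC on the one hand and, as a last accepted form of the motif, TTGGCGC. E2F-type letters were present in 15 of 50 member windows (30%) and in 10.9% of 35114 windows of all genes. CCAAT, the letters bound by NF-Y, were present in 42% of member windows and 32% of all windows. The CHR-type letters, TTTGAA as known from promoters of late cell cycle genes or the variant TTCGAA, were present in 8% of member windows and 14.3% of all windows. A CCAAT match read in reverse (ATTGG) can overlap the last of the E2F-type variants. Of the CHR-type letters the second form is its own reverse complement, and windows of the same gene can overlap. By gene, E2F-type letters were present for 9 of 20 matched members at least 2-fold lower, 4 of 13 lower by less, and 0 of the 4 higher members. Those 4 include RAD51B, whose first listed start lies 3762 bases inside the gene, so its outermost promoter was not searched. Its windows are also counted among the 50. No share by gene was taken over all genes to set beside these counts. The classes were not compared by a test, and 4 genes are too few to read the 0.

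The 9 E2F-type matches of members that fell at least 2-fold are shown in 30 bases each, 5′ to 3′ on the gene's strand. They come from 9 of the 20 matched members with such a fall, and the windows of the others held no E2F-type letters. Members with smaller falls that also held the letters are not shown. They are FANCC (log2 change -0.71), TOP3A (-0.69), RMI1 (-0.41) and RAD52 (-0.32). Capitals mark the match, and the distance is from its first base to the listed start. In order, the matches begin 21, 49, 47, 74, 84, 80, 172, 99 and 60 bases before the start.
RAD51AP1 (chr12:4538858-4538887, + strand): tctggttttggGCGGGAAttgaaaccgccg
RAD54L (chr1:46247628-46247657, + strand): gcgcagcactaTTCCCGCctcttccttggg
BRCA1 (chr17:43125393-43125422, - strand): aacggaaaagcGCGGGAAttacagataaat
BLM (chr15:90717261-90717290, + strand): agcctgaggggGCGGGAAcagatgtccgag
FANCG (chr9:35080008-35080037, - strand): cctcggtggaaGCGGGAAcccaggaggacc
EME1 (chr17:50373138-50373167, + strand): ccgggtcctcaGCGCCAAcaccaccgacgc
FANCA (chr16:89816801-89816830, - strand): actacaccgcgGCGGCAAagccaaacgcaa
FANCL (chr2:58241406-58241435, - strand): cctccaggatcTTCCCGCcaaggctggggt
RAD51D (chr17:35119800-35119829, - strand): gggctctgggcGCGGGAAtcccggcggatc
RAD51AP1, RAD54L, BRCA1, BLM, FANCG, FANCL and RAD51D carry the same letters, TTCCCGC on one strand or the other, while EME1 and FANCA carry variants. A match is a run of letters and not a measured binding site.

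For context, longer stretches free of annotated exons follow for both members that fell most, RAD51AP1 and RAD54L, and for RAD50, which rose. Capitals mark E2F-type and CCAAT letters (ATTGG on the reverse strand). The RAD54L window is whole, and the RAD51AP1 and RAD50 stretches hold no match.
RAD51AP1 (chr12:4538640-4538797, + strand): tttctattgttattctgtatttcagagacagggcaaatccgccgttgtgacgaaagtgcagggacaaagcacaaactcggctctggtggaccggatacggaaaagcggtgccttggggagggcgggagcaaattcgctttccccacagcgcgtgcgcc
RAD54L (chr1:46247438-46247687, + strand): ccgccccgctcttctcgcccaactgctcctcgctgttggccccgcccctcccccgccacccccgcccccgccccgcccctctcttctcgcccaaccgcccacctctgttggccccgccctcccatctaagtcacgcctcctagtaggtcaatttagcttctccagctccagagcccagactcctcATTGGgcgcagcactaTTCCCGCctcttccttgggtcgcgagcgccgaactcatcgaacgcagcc
RAD50 (chr5:132556839-132556937, + strand): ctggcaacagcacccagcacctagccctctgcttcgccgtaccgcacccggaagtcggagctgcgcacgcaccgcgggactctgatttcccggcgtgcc

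At the break ends, the 3 subunits of the MRN complex did not move together. MRE11A (current symbol MRE11), the nuclease subunit, was 45.2, 48.1 and 46.7 CPM in the panobinostat libraries and 77.2, 79.1 and 83.9 CPM in the vehicle libraries, a log2 change of -0.78 ± 0.05 (SE). NBN, the subunit that recruits the kinase ATM, had 88.1, 87.1 and 82.3 CPM with panobinostat and 138, 144 and 157 CPM in vehicle (log2 -0.77 ± 0.05). RAD50, the long coiled-coil ATPase that tethers the ends, went the other way. It stood at 179.7, 178 and 183 CPM with panobinostat and 103, 112 and 114 CPM in vehicle, every drug library above every vehicle library, a rise of 1.64-fold (log2 0.72 ± 0.04; edgeR adjusted p = 6.89e-11). The ratio of RAD50 to MRE11A counts within a library, which no scaling between libraries can alter, was 3.97, 3.70 and 3.92 with panobinostat and 1.33, 1.41 and 1.36 in vehicle. These ratios and those given below were chosen after the values were seen and are given without a test. Differences in size of change between genes were likewise not tested. Of the genes that trim the ends, RBBP8 (CtIP), which starts resection with MRN, fell 1.79-fold. EXO1, the exonuclease that extends it, was at 16.2, 14.6 and 16.6 CPM with panobinostat, against 80.2, 81.8 and 81.6 CPM in vehicle, the third lowest log2 change of the members at -2.36 ± 0.06 (edgeR adjusted p = 2.51e-16).

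All 5 genes of the BRCA1 and BRCA2 complexes, which help to assemble the filament, fell. BRCA1, which promotes resection and recruits PALB2, had 23.6, 24.1 and 24.1 CPM in panobinostat libraries and 109, 117 and 111 CPM in vehicle libraries, 4.68-fold lower (log2 -2.23 ± 0.05; edgeR adjusted p = 8.06e-17). Its obligate partner in a ubiquitin ligase, BARD1, fell 3.65-fold, to 6.03 ± 0.328 CPM with panobinostat against 22.01 ± 0.664 CPM in vehicle (SD, n = 3 each). BRIP1, a helicase that binds BRCA1, fell 4.36-fold. BRCA2 and PALB2 had smaller log2 changes. BRCA2, the loader itself, had 20.5, 21.8 and 19.6 CPM with panobinostat and 52.3, 54.3 and 56.1 CPM in vehicle, 2.63-fold lower (log2 -1.39 ± 0.06; edgeR adjusted p = 3.14e-13). PALB2, which joins BRCA1 to BRCA2, stood just above the 2-fold line with a log2 change of -0.997 ± 0.06, at 18.7 ± 1.34 CPM with panobinostat and 37.2 ± 0.862 CPM in vehicle (SD, n = 3 each).

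**Figure D2:**
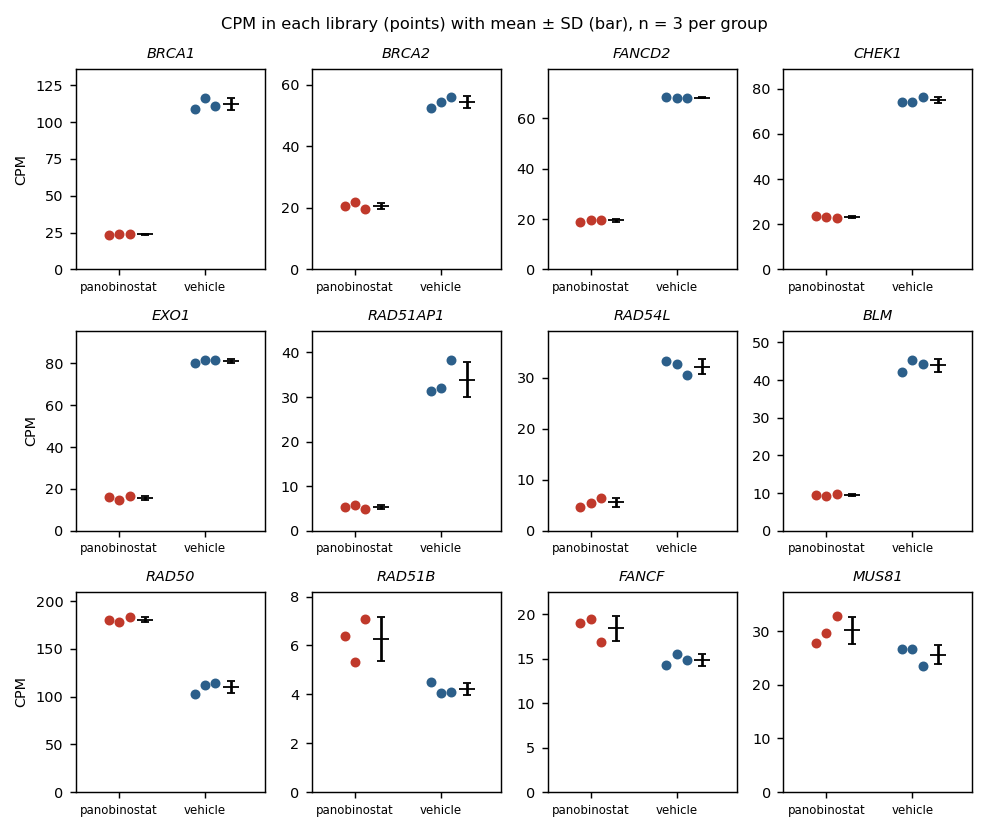
CPM in each library for 12 of the genes, panobinostat at the left and vehicle at the right of each panel, with the mean ± SD (n = 3) as a bar and axes that start at 0. The panobinostat points lie below all vehicle points in the first 8 panels and above them for RAD50, RAD51B, FANCF and MUS81. The nearest MUS81 libraries are at 27.9 CPM with panobinostat and 26.8 CPM in vehicle, and the nearest RAD51B libraries at 5.31 CPM with panobinostat and 4.49 CPM in vehicle.

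The 5 paralogs RAD51B, RAD51C, RAD51D, XRCC2 and XRCC3, which form complexes that stabilise the filament, divided. XRCC2 had 6.52, 7.71 and 6.28 CPM with panobinostat and 22.9, 23.2 and 24.2 CPM in vehicle (log2 -1.77 ± 0.08). XRCC3 had 4.78, 5.80 and 5.45 CPM with panobinostat and 16.7, 15.3 and 14.0 CPM in vehicle (log2 -1.52 ± 0.09). RAD51D had 4.45, 4.07 and 4.27 CPM with panobinostat and 10.2, 11.1 and 9.77 CPM in vehicle (log2 -1.28 ± 0.09). In each of these genes the highest drug library lay below the lowest vehicle library by a wide margin. The fall of RAD51C, the paralog shared by both known complexes, was smaller: its levels were 16.4, 16.0 and 17.4 CPM with panobinostat and 22.2, 22.1 and 21.8 CPM in vehicle (log2 -0.41 ± 0.06). RAD51B, which pairs with RAD51C, rose 1.48-fold (log2 0.56 ± 0.11; edgeR adjusted p = 2.09e-04), with 6.38, 5.31 and 7.09 CPM in panobinostat libraries and 4.49, 4.06 and 4.09 CPM in vehicle libraries. It is the member with the fewest counts in vehicle, 140 to 174 a library, and its SE is the widest of the 42. The ratio of RAD51B to RAD51C counts was 0.376 ± 0.0397 with panobinostat and 0.191 ± 0.00990 in vehicle (SD, n = 3 each).

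Both largest falls belonged to cofactors of strand exchange. RAD51AP1, which stimulates joint molecule formation, was at 5.22, 5.74 and 4.86 CPM with panobinostat and 31.3, 32.1 and 38.4 CPM in vehicle, 6.42-fold lower (log2 -2.68 ± 0.09; edgeR adjusted p = 7.94e-14). RAD54L, a motor protein that remodels the filament and chromatin, followed at 4.75, 5.39 and 6.498 CPM with panobinostat and 33.2, 32.7 and 30.6 CPM in vehicle, 5.82-fold lower (log2 -2.54 ± 0.09; edgeR adjusted p = 3.35e-14). Its relative RAD54B fell 2.41-fold. RAD52, which anneals single strands, had the smallest change among the genes that fell, with 8.34, 9.79 and 9.005 CPM in the drug libraries and 12.2, 10.2 and 11.5 CPM in the vehicle libraries (log2 -0.32 ± 0.09; edgeR adjusted p = 0.00244). The highest drug library and the lowest vehicle library of RAD52 were 9.79 and 10.2 CPM, and with upper quartile scaling its log2 change was -0.20.

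Within the complex that dissolves joined molecules, BLM and RMI2 fell over 4-fold and TOP3A and RMI1 fell under 2-fold. BLM, the helicase mutated in Bloom syndrome, had 9.53, 9.30 and 9.84 CPM with panobinostat and 42.1, 45.4 and 44.3 CPM in vehicle (log2 -2.20 ± 0.06; edgeR adjusted p = 2.33e-15). RMI2, an OB-fold subunit, fell 4.14-fold, to 6.59 ± 0.698 CPM with panobinostat against 27.3 ± 0.856 CPM in vehicle (SD, n = 3 each). TOP3A, the topoisomerase of the complex, fell 1.62-fold and its partner RMI1 1.32-fold. The TOP3A to BLM count ratio was 4.65 ± 0.128 with panobinostat and 1.64 ± 0.104 in vehicle, and the RMI1 to RMI2 ratio was 4.97 ± 0.450 with panobinostat and 1.58 ± 0.0725 in vehicle (SD, n = 3 each). WRN, the helicase mutated in Werner syndrome, fell 1.72-fold.

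Among the nucleases that cut branched DNA, MUS81 and its regulatory partner EME1 moved in opposite directions. EME1 fell 3.11-fold, to 6.28 ± 0.788 CPM with panobinostat against 19.4 ± 0.895 CPM in vehicle (SD, n = 3 each). MUS81, the catalytic subunit, had 27.9, 29.7 and 32.9 CPM with panobinostat and 26.8, 26.6 and 23.5 CPM in vehicle, a rise of 1.18-fold (log2 0.23 ± 0.07; edgeR adjusted p = 0.00540). That is the smallest change of the 42, and the nearest libraries of the groups are 27.9 CPM with panobinostat and 26.8 CPM in vehicle. With upper quartile scaling the log2 change of MUS81 was 0.35, and without vehicle replicate 3 it was 0.16. Their count ratio, MUS81 to EME1, was 4.82 ± 0.332 with panobinostat and 1.32 ± 0.102 in vehicle (SD, n = 3 each). SLX4, the scaffold that binds several such nucleases, fell 1.57-fold.

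In the Fanconi pathway, the ubiquitinated pair fell by similar amounts. FANCD2 had 19.01, 19.8 and 19.6 CPM with panobinostat and 68.5, 68.3 and 68.2 CPM in vehicle (log2 -1.81 ± 0.05; edgeR adjusted p = 1.68e-15). FANCI had a log2 change of -1.78 ± 0.05, and its levels were 42.6, 47.1 and 47.1 CPM with panobinostat and 150.3, 159.9 and 159 CPM in vehicle. Their count ratio, FANCI to FANCD2, was 2.34 ± 0.0884 with panobinostat and 2.29 ± 0.0848 in vehicle (SD, n = 3 each), so the ranges of the ratio overlapped. The ligase side also fell. UBE2T, the E2 enzyme that supplies the ubiquitin, fell 2.64-fold and FANCL, the ligase subunit, 2.55-fold.

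The rest of the Fanconi core complex showed a graded fall with 1 exception. FANCG fell 3.47-fold, FANCA 3.06-fold and FANCB 2.24-fold, all subunits that help to assemble or activate the complex. FANCM, the translocase that anchors it on DNA, fell 1.88-fold, FANCC 1.63-fold and FANCE 1.503-fold. FANCF, the adaptor that links subcomplexes, rose 1.24-fold (log2 0.31 ± 0.07; edgeR adjusted p = 6.74e-04), with 19.01, 19.4 and 16.8 CPM in panobinostat libraries and 14.2, 15.5 and 14.8 CPM in vehicle libraries. All 3 drug libraries lay above the vehicle libraries, the nearest pair being 16.8 and 15.5 CPM. FANCF to FANCE, its neighbour in the complex, gave a count ratio of 2.95 ± 0.222 with panobinostat and 1.59 ± 0.160 in vehicle (SD, n = 3 each).

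All 4 checkpoint kinases fell, the sensors of breaks and stalled forks under 2-fold and the kinases they activate over 2-fold. ATM, which responds to double-strand breaks, had 127, 116 and 119 CPM with panobinostat and 179, 187 and 193 CPM in vehicle (log2 -0.63 ± 0.04; edgeR adjusted p = 4.79e-10). ATR, which responds to single-stranded DNA, fell 1.27-fold. CHEK1, the kinase downstream of ATR, had 23.5, 23.1 and 22.9 CPM with panobinostat and 74.0, 74.0 and 76.4 CPM in vehicle (log2 -1.69 ± 0.05; edgeR adjusted p = 2.65e-15). CHEK2, downstream of ATM, fell 2.28-fold, to 8.19 ± 0.0415 CPM with panobinostat against 18.7 ± 0.655 CPM in vehicle (SD, n = 3 each). The ATR to CHEK1 count ratio was 3.496 ± 0.0134 with panobinostat and 1.38 ± 0.0159 in vehicle (SD, n = 3 each).

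**Figure D3:**
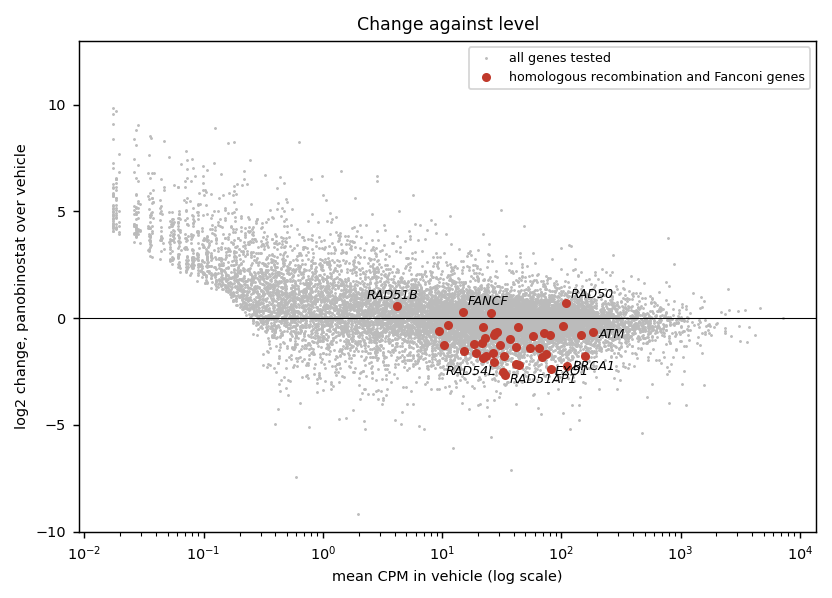
Log2 change, panobinostat over vehicle, against the mean CPM in vehicle on a log axis, for all genes tested (grey; 164 tested genes at 0.01 CPM or less in vehicle are not drawn) and the 42 genes (red). The 42 genes lie between 4.21 and 186 CPM, where most sit in the lower part of the grey cloud.

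Genes that start beside a member on the opposite strand moved in both directions. In the GENCODE v29 annotation 20 members had such a neighbour within 1000 bases, or overlapping by up to 500 bases, that is listed in the table. Of the 18 neighbours tested, 8 fell, 6 rose and 4 did not pass the threshold, beside 41.0% of all genes tested that fell and 41.8% that rose. RAD51AP1 had a log2 change of -2.68 and C12orf4, which starts 290 bases from it, -0.56 ± 0.06. EME1 changed by -1.63 and MRPL27, a mitochondrial ribosomal protein gene starting 6 bases away, by -0.36 ± 0.06. FANCB changed by -1.16 and MOSPD2, 372 bases away, rose by 0.35 ± 0.06. Larger rises beside a fall were those of PURG beside WRN (2.89 ± 0.24, at 2.01 CPM with panobinostat and 0.265 CPM in vehicle) and TEX14 beside RAD51C (3.02 ± 0.25, at 1.77 CPM with panobinostat and 0.213 CPM in vehicle). ATM and NPAT, a regulator of histone genes, fell alike, by log2 changes of -0.63 and -0.69, and so did FANCM and FKBP3 (-0.91 and -1.08). The differences within pairs were not tested.

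**Figure D4:**
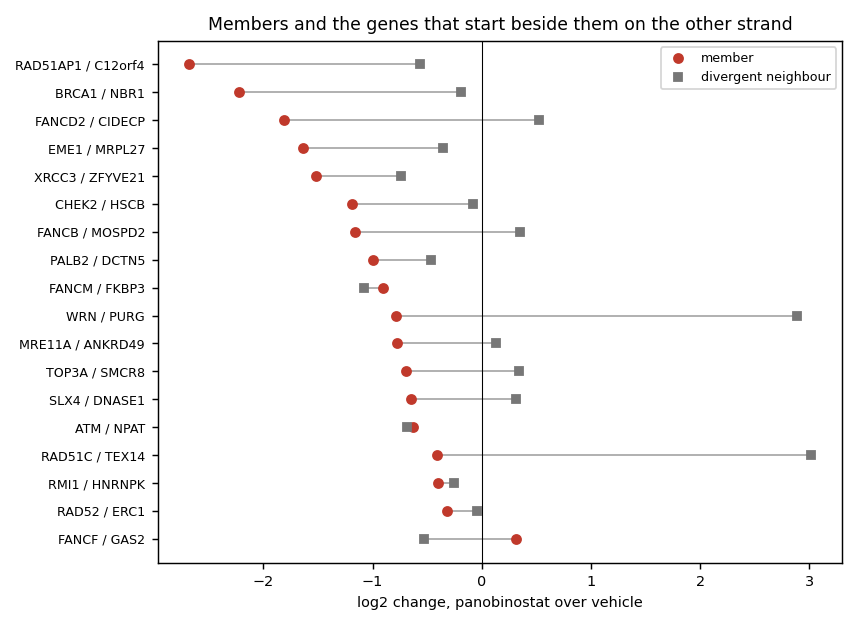
Log2 change, panobinostat over vehicle, of 18 members (red circles) and of the tested gene that starts beside each on the opposite strand (grey squares), joined by a line and ordered by the member. In 15 of 18 pairs the member has the lower value, and FANCM, ATM and FANCF are the members of the other 3 pairs. Because most members fell, most would also lie below a gene at the median of all genes tested, 0.01.

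It is not stated whether counting used strand, so members that share exon bases with other genes are less certain. In GENCODE v29, 9 members shared 10% or more of their exon bases. XRCC3 shared 76.7% with KLC1, which had a log2 change of 0.44, RAD54L shared 25.1% with LRRC41 (-1.55), and FANCA 23.6% with ZNF276 (-0.52). FANCL shared 18.7% with VRK2 (-0.02) and EME1 16.4% with LRRC59 (0.32). Of the members that rose, MUS81 shared 13.9% with CFL1, a far more abundant transcript at 992 CPM with panobinostat and 1063 CPM in vehicle (log2 -0.10), and FANCF shared 11.3% with GAS2, at 0.565 CPM with panobinostat and 0.810 CPM in vehicle. RAD50 shared 79.7% with AC116366.3, an annotated protein-coding locus on its own strand that has no line of its own in the table analysed here, and RAD54B 59.1% with FSBP, which had 0 counts in every library.

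Of other genes in these pathways, most fell and some rose, whereas 41.0% of all genes tested fell and 41.8% rose. The lists were chosen with earlier results of these data known. Of 26 tested genes of strand exchange and joint molecules outside the members, 19 fell and 4 rose (median log2 change -0.71). DNA2, a resection nuclease, fell to 5.14 ± 0.388 CPM with panobinostat against 30.3 ± 1.27 CPM in vehicle, and NUCKS1, a chromatin protein, had a log2 change of -1.31. SFR1, which acts in strand exchange, rose to 57.9 ± 3.76 CPM with panobinostat against 9.27 ± 0.910 CPM in vehicle (SD, n = 3 each), and HELQ, a helicase, rose by 0.61. Among 18 accessory genes of crosslink repair 14 fell and 3 rose (median -0.65), with UHRF1 at -1.57, the ubiquitin ligase RFWD3 at -0.96, the nuclease ERCC4 at 0.43 and MAD2L2 at 0.27.

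Break signalling divided more evenly. Of 13 genes of the BRCA1-A complex and break signalling 8 fell and 4 rose (median -0.28). The share lower was 61.5%, beside 49.9% among all genes at the members' levels. TOPBP1, an activator of ATR, changed by -1.40 and BABAM1 by -0.61, whereas FAM175A (current symbol ABRAXAS1), the scaffold of the BRCA1-A complex, rose by 0.86 and its partner BRE by 0.50. Of 13 partners of the ATR checkpoint 9 fell and 1 rose (median -0.62). CLSPN, the adaptor for CHEK1, fell to 12.5 ± 0.666 CPM with panobinostat against 66.8 ± 1.51 CPM in vehicle, and the phosphatase CDC25A to 5.28 ± 0.506 CPM with panobinostat against 42.2 ± 1.249 CPM in vehicle. CDC25B, a phosphatase of the same family, rose to 545 ± 7.34 CPM with panobinostat against 178 ± 8.97 CPM in vehicle (SD, n = 3 each).

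Lists of other repair pathways had log2 medians between -0.74 and -0.32, and 41.0% of all genes tested were lower. Of 16 end joining genes 13 fell and 1 rose (median -0.55), with POLQ, the polymerase of theta-mediated joining, at -1.93 and the ligase LIG3 at -1.35. LIG4, the ligase of non-homologous end joining, rose to 70.9 ± 3.22 CPM with panobinostat against 30.2 ± 3.08 CPM in vehicle (SD, n = 3 each). With upper quartile scaling or a 5 CPM filter, 3 end joining genes rose. Of 8 mismatch repair genes 7 fell and 1 rose (median -0.74), with the ligase LIG1 at -1.29. Of 19 base excision repair genes 18 fell and 1 rose (median -0.58), among them the glycosylases UNG at -2.20 and NEIL3 at -2.14, while the glycosylase SMUG1 rose by 0.74. UNG is also counted among the S phase marker genes. Of 19 nucleotide excision repair genes 10 fell and 3 rose (median -0.32), with 0 at least 2-fold lower. The share lower in that list, 52.6%, was near the 49.9% among all genes at the members' levels. The damage sensor XPC changed by -0.80 and the helicase complex subunit GTF2H3 by -0.61, while RAD23B and UVSSA rose by 0.30 and 0.35.

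Regulators of cell cycle transcription fell in part. Of 19 E2F, RB and B-MYB factors 14 fell and 4 rose (median -0.93), beside 41.0% of all genes tested that fell. FOXM1 was 27.8 ± 1.46 CPM with panobinostat and 149 ± 3.12 CPM in vehicle, and MYBL2 (B-MYB) 32.7 ± 1.38 CPM with panobinostat and 123 ± 6.22 CPM in vehicle (SD, n = 3 each). RB1, which restrains E2F factors, rose by 0.40 and the repressor E2F6 by 0.28 on the log2 scale.

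**Figure D5:**
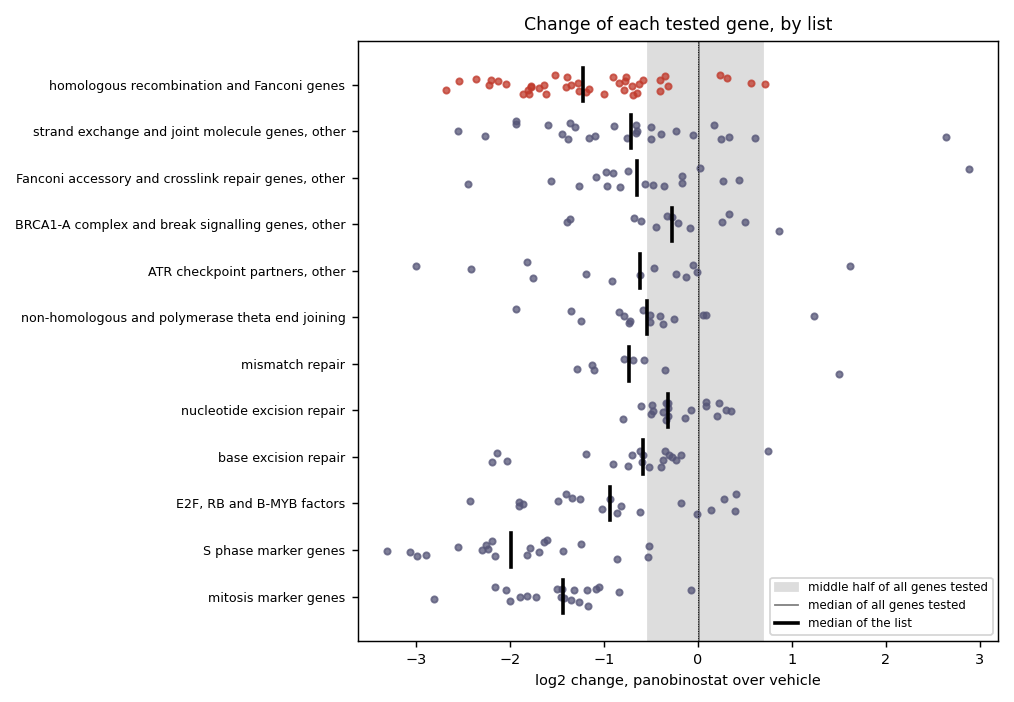
Log2 change, panobinostat over vehicle, of each tested gene in the 42-gene set (red) and in 11 related lists, with a black line at each list's median. The grey band runs between the quartiles of all genes tested, and the thin line is their median, 0.01. The median of the 42 genes, -1.23, lies below those of 9 related lists and above those of the S phase (-1.99) and mitosis (-1.44) lists.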

How the data were processed

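The authors deposited a table of read counts, whole numbers per gene symbol with no normalization, for 6 libraries. STAR is named only in the name of that table, and version, genome build, annotation and strandedness are not stated in the labels. Totals were 32293283 to 38944399 counts, so 3 counts correspond to 0.0774 to 0.0928 CPM, a floor that covers counting error only. Of the lines, 92 spike-in controls with 0 counts (share 0%) were left out. The other 25343 are gene symbols, 28 of which read as dates. Columns were matched to samples by title and groups taken from the dose in the labels.

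Chi-square per df between libraries of 1 group was 1.90 to 9.14, above sampling noise. Each library was counted as 1 replicate, though this scatter does not show that the libraries came from separate cultures. Genes passing filterByExpr were TMM-scaled, and edgeR's robust quasi-likelihood test was run on group alone (common coefficient of biological variation 0.0449, median SE 0.0689). Calls are Benjamini-Hochberg adjusted p under 0.05 over 15499 genes. The steps were tested on simulated counts. Software was R 4.3.3, edgeR 4.0.16, limma 3.58.1, DESeq2 1.42.0, Python 3.11.15 and matplotlib 3.10.9.

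The 42 genes, their roles and all lists were chosen with earlier results of these data known. Genes given by library are those that rose, the 5 largest falls, the 3 highest levels, BRCA1, BRCA2, FANCD2, CHEK1, RAD51B, RAD51C, RAD51D, XRCC2 and XRCC3, with MRE11A, RAD52 and FANCI added after their values were seen. From each related list up to 2 called genes per direction at 1 CPM or more are named by adjusted p, and 1 mismatch repair gene and 1 lymphoid marker are not reported here. Promoter windows and coordinates are from RefSeq (GRCh38.p14), and the exon overlaps and neighbours from GENCODE v29. Windows of EXO1, FANCF and MUS81 had under 80 bases free of annotated exons and are not shown. Promoters, count ratios and neighbouring genes were examined after the members' values were seen.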

Additional observations from a re-analysis of the deposited data

How the results depend on the processing

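Over 14 alternatives (3 scalings, 2 filters, DESeq2, limma-voom, a replicate block and each library left out) all 588 values of the 42 genes kept their direction and their side of the threshold, and the counts stayed at 38 lower and 4 higher, with 23 or 24 at least 2-fold lower. The weakest calls were those of MUS81, at 0.17 (edgeR adjusted p = 0.0425) without panobinostat replicate 3 and 0.16 (edgeR adjusted p = 0.0271) without vehicle replicate 3, and of RAD52, at -0.20 (edgeR adjusted p = 0.0386) with upper quartile scaling. The members' median log2 change of -1.23 was -1.11 with upper quartile scaling, -1.27 without a low-count filter, -1.13 under the filter of 5 CPM in 3 libraries, and -1.26 to -1.21 with a library left out. Upper quartile scaling moved the median of all genes tested to 0.13 and the missing filter to 0.12. Genes called were 12518 to 13053 with a library left out. Of related genes 150 fell and 22 rose, 139 to 154 and 21 to 29 over the alternatives, and nucleotide excision repair genes numbered 6 higher under upper quartile scaling and 5 under the 5 CPM filter, against 3. Replicate numbers follow accession order and were not taken as pairs. Same-numbered libraries had deviations correlated at -0.0776, -0.0576 and -0.141 across genes, and differently numbered libraries at -0.019 to 0.0881. These correlations cannot exclude a pairing, because the deviations were taken within groups of 3 libraries. The replicate block left 12409 calls, 38 and 4 among the members, with the median at -1.23. Low counts limit RAD51B most, with an SE of 0.11.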
